A study of Homo sapiens with 36 samples.

Results

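The genes described here encode the protein parts of plasma lipoproteins that liver cells make, together with the transfer protein that loads lipid onto one of them: APOA1, APOA2, APOB, APOC1, APOC3, APOE, APOH, APOM and MTTP. They were taken by symbol, and all 9 were present among the 18932 genes of the deposited count table. The samples were HepG2 cells, a human hepatoma line with many hepatocyte functions, grown without an added lipid (Ctrl, vehicle) or with docosahexaenoic acid (DHA, 50 µM), propionate (PRO, 70 µM), protocatechuic acid (PCA, 20 µM), DHA + PRO or DHA + PCA. Each of these 6 conditions was sampled after 6 h and after 24 h, giving 12 groups of 3 libraries and 36 libraries in all. DHA is a long-chain n-3 fatty acid, PRO a short-chain fatty acid formed by gut bacteria and PCA a phenolic acid formed from anthocyanins. The study's methods describe 3 independent cultures, with the RNA of 3 culture replicates pooled in each, and all groups came from this 1 cell line. Cells were maintained with serum, and all conditions, Ctrl included, were given in serum-free medium. The deposited column names carry the same 3 culture numbers for each replicate number in every group, so libraries with the same number were taken as 1 culture experiment. Reads were counted without molecular identifiers, and library totals ran from 4659744 to 42326734 counts with a median of 7034010.

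Lipoproteins carry triglycerides and cholesterol through the blood. In the hepatocyte, the microsomal triglyceride transfer protein (MTTP) moves lipid onto apolipoprotein B as it enters the endoplasmic reticulum, and the nascent particle is then carried to the Golgi in COPII vesicles and secreted as very low density lipoprotein. Smaller apolipoproteins, made by the same cells, exchange between particles: APOA1 and APOA2 are the main proteins of high density lipoprotein, APOC1 and APOC3 slow the breakdown and uptake of triglyceride-rich particles, and APOE is a ligand of the receptors that clear them.

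The counted transcript of APOB, the structural protein of the secreted particle, lies on hg19 chr2:21224301-21266945 (minus strand), and that of MTTP on chr4:100485235-100545154 (plus strand). APOA1 (chr11:116706469-116708338, minus strand) and APOC3 (chr11:116700624-116703787, plus strand) are neighbours with 2681 bp between them. APOE (chr19:45409006-45412652) and APOC1 (chr19:45417921-45422606), both on the plus strand, are 5268 bp apart. APOA2 lies on chr1:161192083-161193418 (minus strand), APOM on chr6:31620187-31625987 (plus strand) and APOH on chr17:64208147-64225556 (minus strand). The TruSeq v2 kit does not keep the strand of the RNA, so reads of APOA1 and its antisense gene APOA1-AS, and of APOM and the opposite gene BAG6, cannot be told apart where these overlap. Other annotated genes overlap APOA2, APOB and MTTP on the opposite strand, and APOE and APOC1 on the same strand, with the same limit. No gene in the annotation overlapped APOC3 or APOH.

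Upstream sequences were taken for 4 members, 3 that rose between 6 h and 24 h (APOA2, APOM, MTTP) and 1 whose fitted level was lower at 24 h (APOH). Each window holds the 250 bases before a transcription start in RefSeq (GRCh38.p14, shown 5′ to 3′ on the gene's strand). The coordinates are chr1:161223629-161223878 for APOA2 (minus strand), chr6:31655644-31655893 for APOM (plus), chr4:99574574-99574823 for the later of 2 MTTP starts (plus) and chr17:66229416-66229665 for APOH (minus). RefSeq windows were matched for 6 of the 9 members. Capitals mark every match, on either strand, to AGGTCA (the half-site that many nuclear receptors read), TGTTTAC (a forkhead core), TATAAA (the TATA box) or the letters GTTAAT, none of which contains another.
APOA2: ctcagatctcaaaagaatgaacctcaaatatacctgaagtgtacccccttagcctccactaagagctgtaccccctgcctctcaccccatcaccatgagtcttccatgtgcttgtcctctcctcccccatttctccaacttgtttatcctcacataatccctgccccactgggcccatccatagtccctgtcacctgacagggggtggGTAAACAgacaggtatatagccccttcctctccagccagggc
APOM: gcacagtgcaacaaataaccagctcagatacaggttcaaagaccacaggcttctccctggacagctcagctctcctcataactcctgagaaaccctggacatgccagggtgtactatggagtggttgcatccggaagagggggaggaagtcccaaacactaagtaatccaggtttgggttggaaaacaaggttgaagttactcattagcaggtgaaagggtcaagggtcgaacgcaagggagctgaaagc
MTTP: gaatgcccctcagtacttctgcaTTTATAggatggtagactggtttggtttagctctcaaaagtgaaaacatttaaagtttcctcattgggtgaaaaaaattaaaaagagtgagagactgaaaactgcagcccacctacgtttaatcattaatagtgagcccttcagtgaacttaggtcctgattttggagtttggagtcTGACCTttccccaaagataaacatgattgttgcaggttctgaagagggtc
APOH: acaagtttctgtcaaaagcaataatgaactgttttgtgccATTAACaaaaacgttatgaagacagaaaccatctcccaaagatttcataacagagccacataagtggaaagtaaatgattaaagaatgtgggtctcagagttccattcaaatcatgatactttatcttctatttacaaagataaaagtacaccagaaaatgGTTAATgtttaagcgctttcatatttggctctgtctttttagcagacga
APOA2 held 1 match, TGTTTAC on the opposite strand, which 2.98% of the 35116 RefSeq windows of this length also hold. MTTP held AGGTCA and TATAAA, both on the opposite strand, which 12.1% and 10.7% of windows hold. APOH held GTTAAT once on each strand, a motif found in 6.23% of windows. None of the 4 motifs occurred in the APOM window. The windows of APOC1, of APOE and of the earlier MTTP start (chr4:99563880-99564129) are not shown and also held none.

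The label of a hepatocyte-derived line matched its markers. Albumin (ALB) alone made up 21587 to 31769 CPM (read counts scaled to the same library total after TMM normalisation) in all 36 libraries, and 11 hepatocyte markers summed to 46777 to 56588 CPM at 6 h and 52739 to 64144 CPM at 24 h. Markers of blood, endothelial and stromal cells summed to 812 to 1266 CPM at 6 h and 1589 to 2606 CPM at 24 h, of which LYZ gave 752 to 1222 and 1542 to 2548. Of the other 11 of these markers, CD68 had 32.8 to 71.6 CPM, and COL1A1, COL3A1, CD14, DCN and VIM reached at most 8.75, 6.88, 3.14, 2.48 and 1.75. PTPRC, PECAM1, VWF, CDH5 and LUM stayed below 1 CPM in every library.

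Per length of transcript, APOA2 was the most abundant member. Its median over the 36 libraries was 5867 RPKM (CPM per kilobase of transcript), rank 3 of 18849 genes with a usable length. APOA1 followed with a median of 3521 RPKM (rank 5), and APOH, a phospholipid-binding plasma protein also called beta-2-glycoprotein I, with 2142 RPKM (rank 10). APOB had a median of 867 RPKM (rank 52) and APOE one of 629 RPKM (rank 79). APOM, which carries a signalling sphingolipid on high density lipoprotein, reached 306 RPKM (rank 170), APOC3 286 RPKM (rank 181) and APOC1 250 RPKM (rank 213). MTTP stood far below them with 28.4 RPKM (rank 2991). Because its transcript is long, APOB took the largest part of the reads, 12237 CPM at the median and rank 2 of all genes. Most neighbours in this order kept it in each of the 36 libraries. The exceptions were APOB over APOE, in 33 libraries, APOM over APOC3, in 31, and APOC3 over APOC1, in 18, so that the last pair had no fixed order.

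**Figure D1:**
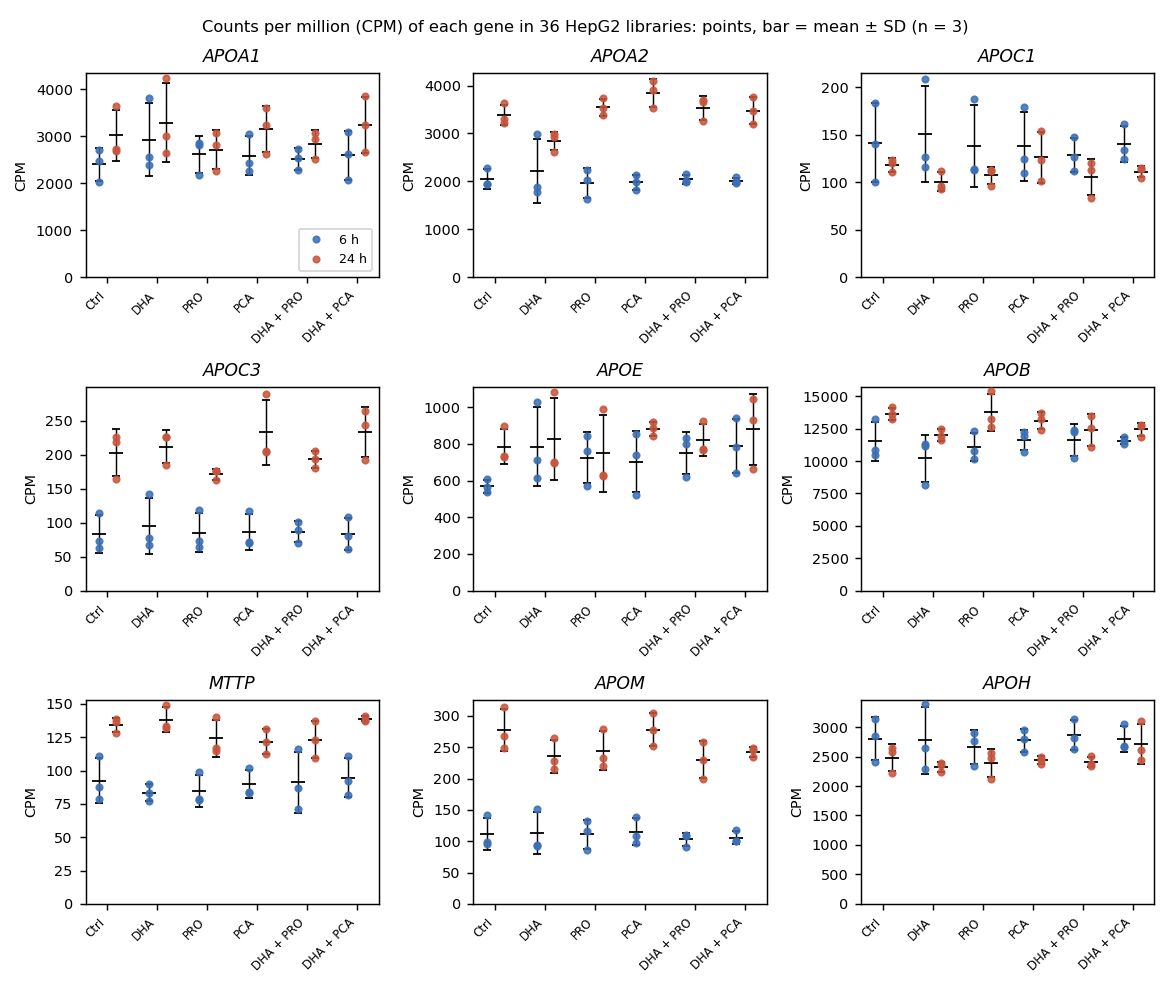
Level of each gene (CPM, linear axis from 0) in the 6 conditions, with 6 h libraries in blue and 24 h libraries in red. Points are single libraries and bars the mean ± SD of 3. APOC3 and APOM show no overlap between the times in any condition, whereas within a time the conditions overlap broadly for most genes.

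The main question of the study was what DHA, alone or with PRO or PCA, does to the transcriptome. None of the 9 members was called in the pooled DHA comparison at 24 h without regard to culture experiment, in which the 9 libraries with DHA were set against the 9 without it, while 1.23% of the 11893 genes tested were called (146 genes). A gene was called at an adjusted p of at most 0.05 (edgeR quasi-likelihood test, Benjamini-Hochberg over all genes) with an average log2 CPM above 0. With the culture experiment as a replicate block 1 member was called, APOB, against 3.09% of genes (367). At 6 h no member was called without the block, against 0.202% of 11872 genes (24 genes), or with it, against 0.539% (64 genes). With the block and an offset for GC content together, a setting chosen after seeing the data, 3 members were called at 24 h, APOB, APOA2 and APOM, all lower with DHA, against 6.55% of genes. All 9 members passed the filter on low counts at both times.

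Among the members that build the secreted particle, APOB ran from 12412 to 15389 CPM without DHA at 24 h (median 13285) and from 11070 to 13515 with it (median 12478). The ranges overlapped, and the pooled difference was -0.13 ± 0.05 (log2 fold change ± SE, adjusted p = 0.342, 95% interval -0.24 to -0.02). Within culture experiments APOB was lower with DHA in 9 of 9 pairs at 24 h, and the blocked difference of -0.13 ± 0.03 passed the test (edgeR, adjusted p = 0.0197, and 0.00398 with the GC offset added). At 6 h it was lower in 5 of 9 pairs. The 9 pairs, here and below, come from 3 culture experiments and are not 9 independent replicates. Pairs were not counted over all genes, so these counts have no share beside them. In the direct comparison, the Ctrl libraries had 14141, 13606 and 13237 CPM and the DHA libraries 12478, 11914 and 11644, so that these 2 groups did not overlap, as for 2 of the 9 members (APOB and APOA2) and 10.6% of all genes. Their difference of -0.18 ± 0.09 had an adjusted p of 0.864. MTTP differed by 0.08 ± 0.06 with DHA at 24 h (adjusted p = 0.685, interval -0.03 to 0.20).

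For the proteins of high density lipoprotein, the values with DHA at 24 h were as follows. APOA2 had 3628, 3228 and 3296 CPM in Ctrl and 2931, 2619 and 2979 in DHA, with all DHA libraries below all Ctrl libraries. The difference of -0.24 ± 0.09 did not pass the test (adjusted p = 0.680), nor did the pooled one of -0.13 ± 0.05 (adjusted p = 0.371), with APOA2 lower in 6 of 9 pairs. With the block and the GC offset together these became -0.24 (adjusted p = 0.0326, against 1.62% of genes called) and -0.13 ± 0.04 (adjusted p = 0.0182). The combined treatments overlapped Ctrl: APOA2 had 3708, 3656 and 3253 CPM with DHA + PRO and 3469, 3205 and 3763 with DHA + PCA. The mean was 3539 CPM with DHA + PRO and 3549 with PRO alone, and 3479 with DHA + PCA and 3844 with PCA alone. Against DHA alone the combined treatments differed by 0.30 ± 0.09 in both cases and did not pass the test (adjusted p = 0.999 for each). The groups did not overlap, as for 10.9% of genes with DHA + PRO and 7.73% for DHA + PCA. Not 1 gene was called in either of these comparisons at 24 h (0% of those tested), although with the block and the GC offset together APOA2 was called in both (adjusted p = 0.0173 and 0.0278, against 0.782% and 0.193% of genes).

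APOM had 314, 248 and 268 CPM in Ctrl at 24 h, against 227, 215 and 265 in DHA, 230, 259 and 200 in DHA + PRO and 234, 245 and 249 in DHA + PCA. Each of these groups with DHA had a lower mean than Ctrl, and each overlapped it. The pooled DHA difference was -0.16 ± 0.07 (adjusted p = 0.343, interval -0.30 to -0.03). APOM was lower with DHA in 8 of 9 pairs, and passed the test with the block and the GC offset together (-0.17 ± 0.05, adjusted p = 0.0366). APOA1 differed by 0.09 ± 0.09 (adjusted p = 0.827).

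Of the exchangeable apolipoproteins, APOC1 differed by -0.14 ± 0.08 (adjusted p = 0.605), APOC3 by 0.09 ± 0.08 (adjusted p = 0.790) and APOE by 0.07 ± 0.10 (adjusted p = 0.868) in the pooled DHA comparison at 24 h. APOH differed by 0.03 ± 0.05 (adjusted p = 0.893). Taken over the 9 members, the 95% intervals at 24 h ran from 0.812-fold, the lower bound of APOC1, to 1.21-fold, the upper bound of APOE. The values of this paragraph come from the fit without the replicate block, which leaves the pairing by culture experiment out.

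At 6 h the pooled DHA differences lay between -0.08 for APOM and 0.22 for APOE. APOE, the receptor ligand, had 564, 608 and 538 CPM in Ctrl at this time, 1027, 613 and 713 in DHA, 621, 799 and 834 in DHA + PRO and 781, 642 and 940 in DHA + PCA. All groups with DHA lay wholly above Ctrl, by 0.46 ± 0.20, 0.39 ± 0.20 and 0.45 ± 0.20, and no difference passed the test (adjusted p = 0.9998, 0.9998 and 0.9986). Groups without overlap were found for 8.99%, 5.04% and 10.3% of genes in these comparisons. The PRO libraries, which hold no DHA, had 763, 571 and 841 CPM and the PCA libraries 852, 520 and 737, so that the Ctrl libraries at 6 h were the narrow and low group. The change of the pooled DHA effect from 6 h to 24 h was not called for any member, with or without the block. Without the block 0% of 12046 genes were called, and with it some genes outside the members were. The members' changes ran from -0.19 ± 0.11 for APOA2 to 0.07 ± 0.12 for MTTP without the block.

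**Figure D2:**
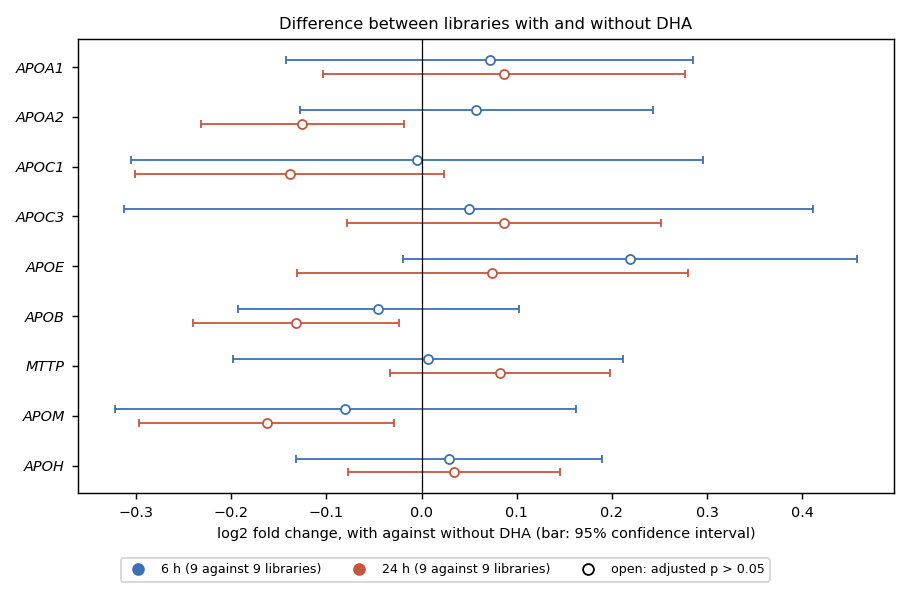
Difference between the 9 libraries with and the 9 without DHA (log2 fold change, horizontal axis) for each gene at 6 h (blue) and 24 h (red), with the 95% confidence interval as a bar. All points are open, since no adjusted p was at or below 0.05 without the replicate block, and the 24 h points run from -0.16 for APOM to 0.09 for APOC3 and APOA1.

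PRO and PCA were followed alone and on top of DHA. No member was called for either at 6 h or 24 h, also with the block. Without the block no other gene was called in the pooled PCA comparisons (0%) or in the pooled PRO comparison at 6 h (0%). At 24 h PRO gave 0.00841% (1 gene) without the block. APOA2 at 24 h had 3628, 3228 and 3296 CPM in Ctrl, 4093, 3904 and 3535 with PCA and 3383, 3528 and 3737 with PRO. The pooled PCA difference of APOA2 was 0.24 ± 0.06 (unadjusted p = 0.000898, adjusted p = 0.912) and that of PRO 0.18 ± 0.06 (unadjusted p = 0.00880, adjusted p = 0.747). With the block and the GC offset together both passed the test (adjusted p = 0.00712 and 0.0153, against 0.689% and 1.65% of genes called). Both contain the low DHA group as a reference. MTTP differed by -0.15 ± 0.07 with PRO (adjusted p = 0.883).

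All values of this paragraph come from the fits without the replicate block. With it APOB was called in the pooled DHA comparison at 24 h. Over all 10 comparisons of a time, the members' log2 fold changes lay between -0.27 and 0.30 at 24 h and between -0.24 and 0.46 at 6 h, and the smallest adjusted p was 0.342 and 0.9986. Without adjustment, 12 of the 90 tests at 24 h and 2 of the 90 at 6 h had a p below 0.05, and these tests share libraries. Of the single contrasts with Ctrl at 24 h, 0.286% of genes were called for DHA + PCA, 0.395% for DHA + PRO, 0.193% for DHA alone and 0% for PRO or PCA. At 6 h these shares were 0.0168% for each of DHA, DHA + PRO and DHA + PCA and 0% for the others, which was also the share for both combinations against DHA.

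Related genes were tested in the same pooled DHA comparison, in which 1.23% of all genes were called at 24 h. Of 15 tested genes of lipoprotein remodelling and uptake, 3 fell at 24 h and none rose, with a median of -0.01 against 0.01 for all genes. The counts were the same with the block. Among those that fell was the endothelial lipase gene LIPG, which went from a mean of 25.5 to 18.6 CPM (-0.44 ± 0.09, adjusted p = 0.00616). LIPC, LCAT, PLTP, ABCA1 and ANGPTL4 did not pass the test at 24 h and had log2 fold changes from -0.17 to 0.09.

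Of 28 regulators of apolipoprotein genes, 1 rose and 2 fell with DHA at 24 h, or 1 and 3 with the block (NR0B2 added, -0.24 ± 0.06), where 3.09% of all genes were called. CREB3L3, a liver transcription factor that acts on triglyceride metabolism genes, went from 50.4 to 77.4 CPM (0.63 ± 0.10, adjusted p = 0.000784). SREBF1, which drives lipogenic genes, went from 150 to 93.4 CPM (-0.68 ± 0.09, adjusted p = 7.2e-05), and SREBF2, which drives cholesterol synthesis genes, by -0.23 ± 0.06 (adjusted p = 0.0478). HNF4A and PPARA had differences of -0.03 and -0.02 and did not pass. Of 26 genes of assembly and secretion 1 fell, MIA2 (-0.48 ± 0.11, adjusted p = 0.0207), which helps load large cargo into COPII vesicles, and 4 fell with the block. P4HB, the partner subunit of MTTP, was among these (adjusted p = 0.0490) and had -0.13 ± 0.06 without the block (adjusted p = 0.405). Without passing, SAR1B had 0.03 ± 0.05, SURF4 -0.05 ± 0.05 and TM6SF2 0.28 ± 0.14. None of 9 other apolipoprotein genes was called, among them APOA4 (0.03 ± 0.10, or -0.0062 with an offset for GC content) and APOA5 (0.04 ± 0.08). Of 11 hepatocyte markers 1 fell with DHA at 24 h, TF (-0.20 ± 0.05, adjusted p = 0.0317), against 1.23% of all genes called. With the block 2 of them fell. Beside these values, the marker LYZ fell by 0.28 ± 0.06 on the log2 scale with DHA at 24 h. The part of TF and LYZ in the results was not tested.

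Time had the larger effect on the members. Between 6 h and 24 h without DHA (9 libraries of Ctrl, PRO and PCA against 9), 6 members rose, 1 fell and 2 were not called, so 7 of 9 were called where 48.4% of the 12046 genes tested were (2928 up, 2903 down). The median of the members' log2 fold changes was 0.28, and that of all genes -0.01. With DHA the count was again 7 of 9, 5 up and 2 down, against 46% of genes. With the replicate block all 9 members were called without DHA, where 56.3% of genes were, and 8 with DHA, where 54.4% were. Culture age, the hours in serum-free medium and the hours with the treatment changed together and cannot be told apart. Nor can fewer copies per cell be told from a change in the other RNAs in bulk libraries.

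APOC3, the inhibitor of triglyceride clearance, had 63.1 to 118 CPM at 6 h without DHA (median 72.3) and 162 to 288 at 24 h (median 204). With DHA it had 61.2 to 143 CPM (median 80.5) and 180 to 264 CPM (median 205). Over all 18 libraries of each time the ranges did not meet, as for 5.99% of genes. The rise was 1.24 ± 0.14 on the log2 scale without DHA, or 2.36-fold (95% interval 1.93 to 2.90, adjusted p = 1.2e-08), and 1.27 ± 0.14 with DHA (adjusted p = 8.6e-09).

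APOM rose by the same size. Its levels were 85.3 to 141 CPM at 6 h without DHA (median 109) and 220 to 314 at 24 h (median 268), and 90.2 to 151 (median 99.8) and 200 to 265 (median 234) with DHA. The 18 libraries of 24 h again lay wholly above the 18 of 6 h. The log2 fold change was 1.24 ± 0.10 without DHA (2.37-fold, interval 2.06 to 2.72, adjusted p = 2.4e-12) and 1.15 ± 0.10 with DHA (adjusted p = 1.7e-11). In the comparison without DHA 2.86% of genes had a change as large as that of APOC3 or APOM in either direction.

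APOA2 went from 1629 to 2290 CPM at 6 h (median 1979) to 3228 to 4093 CPM at 24 h (median 3535) without DHA, without overlap. The rise was 0.85 ± 0.08, or 1.80-fold (interval 1.62 to 2.00, adjusted p = 3.7e-11). With DHA it was 0.66 ± 0.08 (adjusted p = 1.2e-08), and 1 library of DHA at 6 h, with 2987 CPM, overlapped the range at 24 h of 2619 to 3763 CPM. The neighbouring values of APOA1, its partner on high density lipoprotein, were 2024 to 3051 CPM at 6 h and 2255 to 3650 at 24 h without DHA. APOA1 differed by 0.23 ± 0.11 both without and with DHA and was not called (adjusted p = 0.0716 and 0.0676, or 0.0119 and 0.0129 with the block, but 0.760 and 0.515 with the block and the GC offset together).

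MTTP went from 77.6 to 111 CPM at 6 h (median 84.0) to 113 to 140 CPM at 24 h (median 128) without DHA, a rise of 0.51 ± 0.08 (1.43-fold, adjusted p = 3.9e-06) with no overlap. With DHA the rise was 0.58 ± 0.08 (adjusted p = 5.6e-07). Its substrate APOB rose less, from 10191 to 13224 CPM (median 10863) to 12412 to 15389 CPM (median 13285) without DHA, by 0.25 ± 0.06 (1.19-fold, adjusted p = 0.00150), and by 0.16 ± 0.06 with DHA (adjusted p = 0.0425). Without DHA 4 of the 9 members, APOC3, APOM, APOA2 and MTTP, had no overlap between the times, against 11.4% of genes, and with DHA 2, APOC3 and APOM, against 11.8%.

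APOC1 was the member with the largest fall between the times with DHA, -0.39 ± 0.12 (adjusted p = 0.00997). It went from 112 to 208 CPM at 6 h (median 127) to 83.9 to 120 at 24 h (median 112). Without DHA its difference was -0.25 ± 0.12 (adjusted p = 0.0978, or 0.00397 with the block). Its neighbour APOE rose by 0.28 ± 0.12 without DHA (adjusted p = 0.0423, but -0.019 with an offset for GC content). With DHA APOE had 0.13 ± 0.12 (adjusted p = 0.372), which turned to -0.15 ± 0.05 with the block and the GC offset together (adjusted p = 0.00997). APOH changed by -0.17 ± 0.07 in both settings (adjusted p = 0.0445 and 0.0423), from a median of 2798 to 2483 CPM without DHA. Whether the change with time differed between libraries with and without DHA was tested for each member, and none was called.

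**Figure D3:**
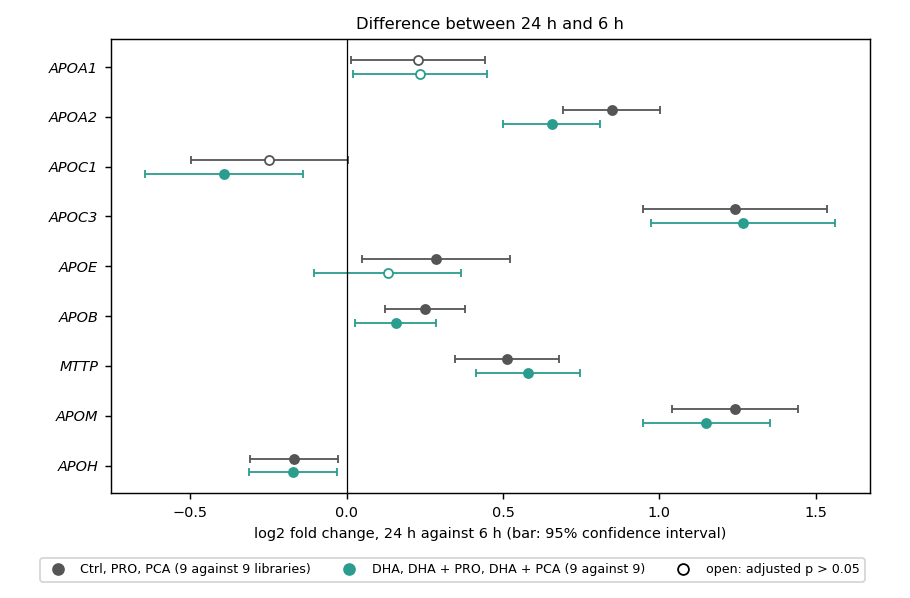
Difference between 24 h and 6 h (log2 fold change, horizontal axis) for each gene, without DHA (grey) and with DHA (green), each 9 libraries against 9, with the 95% confidence interval as a bar. Filled points had an adjusted p of at most 0.05. APOC3 and APOM stand near 1.2, APOA2 and MTTP between 0.51 and 0.85, and the other genes between -0.39 and 0.28.

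Base composition moved with some of these results. APOE had the highest GC content of the members (69%), followed by APOA1 (63.6%) and APOC3 (60.4%), and APOH (42.9%) and MTTP (41.9%) the lowest. With an offset for GC content in each library, the values without DHA became -0.019 ± 0.08 for APOE and 0.01 ± 0.10 for APOA1, and APOH was no longer called (-0.07 ± 0.07, and -0.11 ± 0.07 with DHA). APOC3 (1.07 ± 0.16), APOM (1.18 ± 0.11), APOA2 (0.77 ± 0.08), MTTP (0.63 ± 0.07) and APOB (0.34 ± 0.06) were called with it, and so was APOC1 (-0.35 ± 0.14, adjusted p = 0.0334), which was not called without it.

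The libraries numbered 1 at 6 h stood apart from those numbered 2 and 3. APOC3 had 100 to 143 CPM in the 6 libraries numbered 1 and 61.2 to 89.8 in the 12 others, and APOC1 147 to 208 against 101 to 140, both without overlap. APOH had 2891 to 3398 CPM against 2291 to 2850, also without overlap. MTTP had 89.7 to 116 CPM against 71.1 to 92.0 and APOM 108 to 151 against 85.3 to 116. At 24 h the ranges overlapped for each of these genes. When the 6 libraries were left out, the changes with time without DHA were 1.54 ± 0.09 for APOC3, 1.41 ± 0.08 for APOM, 0.93 ± 0.06 for APOA2 and 0.64 ± 0.06 for MTTP, all larger than with them. That of APOC1 became 0.0024 ± 0.09, and with DHA -0.20 ± 0.09 (adjusted p = 0.0510). APOH was not called without them in either setting (-0.10 ± 0.06 and -0.06 ± 0.06).

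**Figure D4:**
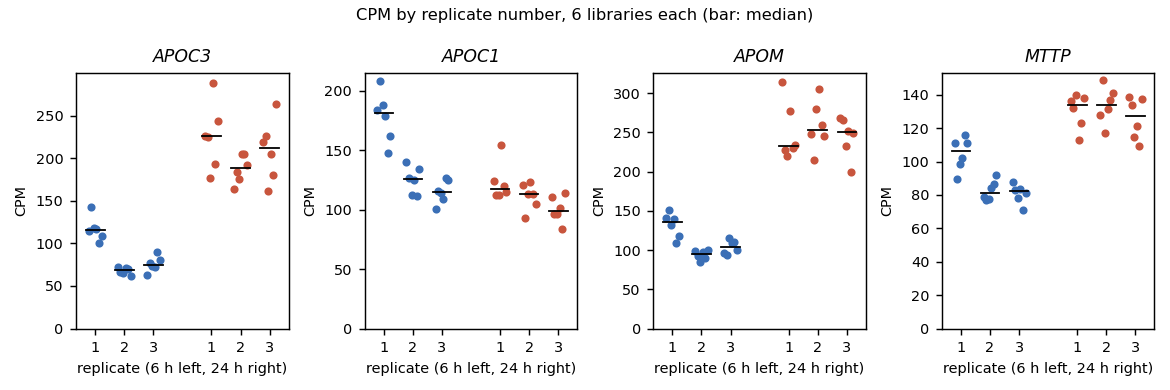
Level (CPM, linear axis from 0) of APOC3, APOC1, APOM and MTTP by replicate number, 6 libraries for each number, at 6 h (blue, left) and 24 h (red, right), with the median as a bar. At 6 h the libraries numbered 1 have the highest median for all 4 genes, for example 116 CPM for APOC3 against 68.5 and 75.0.

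Library numbers in the labels fall into an earlier series of 23 and a later one of 13. The later one holds every library numbered 3 and replicate 2 of DHA + PRO at 6 h. Series and culture experiment can therefore hardly be told apart. Within the earlier series alone the changes with time without DHA were 1.14 ± 0.19 for APOC3, 1.25 ± 0.13 for APOM, 0.84 ± 0.10 for APOA2, 0.48 ± 0.09 for MTTP and 0.33 ± 0.08 for APOB, all called. APOE (0.32 ± 0.14) and APOH (-0.18 ± 0.10) were not called there. With DHA, APOB (0.18 ± 0.08) was not called there, nor without the 6 h libraries numbered 1 (0.13 ± 0.06).

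Related genes were also compared between the times without DHA, where 24.3% of all genes rose and 24.1% fell. Among 9 other apolipoproteins tested, 6 rose and 1 fell without DHA (median 0.45). APOA5, which promotes triglyceride hydrolysis, went from a mean of 33.5 to 67.9 CPM (1.03 ± 0.08), and APOA4, APOF and CLU rose by 0.62, 0.66 and 0.55, while SAA4 fell by 1.14. Of 16 genes of remodelling and uptake 10 rose and none fell (median 0.38): LIPG (1.37 ± 0.12), ANGPTL4 (0.77 ± 0.24) and LCAT (0.70 ± 0.08) rose, as did LIPC, ABCA1 and PLTP by 0.65, 0.49 and 0.29. With the offset for GC content the counts were 8 and 1, and PLTP (0.14 ± 0.08) was not called. The shares of all genes given for the times are those without the offset, so counts with it have no such share beside them.

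Assembly and secretion genes gave 4 rises and 6 falls of 26, with a median of -0.06, where 48.4% of all genes were called. With the replicate block there were 5 rises and 8 falls, where 56.3% of all genes were called. TM6SF2, which acts in lipidation of the particle, rose by 0.75 ± 0.19 and the COPII coat gene SEC13 by 0.37 ± 0.05. SAR1B, the GTPase that starts the coat, fell by 0.40 ± 0.06 on the log2 scale, SEC24B by 0.45 and MIA2 by 0.67. P4HB (0.05 ± 0.06) and the cargo receptor SURF4 (0.06 ± 0.05) did not pass. With the offset these counts were 6 and 8, and the signs of P4HB and SURF4 turned (-0.06 ± 0.04 and -0.017 ± 0.04). Of the 28 regulators 10 rose and 6 fell (median -0.03), or 8 and 11 with the offset. NR0B2 (0.98 ± 0.13), MLXIPL (0.64 ± 0.11) and SREBF1 (0.64 ± 0.09) rose, whereas the bile acid receptor NR1H4 fell by 1.35 and HNF4A, a factor that many apolipoprotein genes depend on, by 0.25. NR5A2 fell by 0.72 and PPARA rose by 0.26 ± 0.10.

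Of the 11 hepatocyte markers 7 rose and 3 fell over the same interval. TTR went from 84.6 to 263 CPM (1.63 ± 0.10) and SERPINA1 from 5481 to 8894 CPM (0.70 ± 0.06), while HP (-1.11 ± 0.07) and FGB (-0.75 ± 0.06) fell. LYZ rose by 1.24 ± 0.09. Their part in the members' changes was not tested.

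Within a time, the genes most like each member were found by Pearson's r of log2 CPM over 18 libraries, taking the lower of the r values at 6 h and 24 h among 12045 other genes. For APOA1 this was CST3 (0.88 at 6 h and 0.91 at 24 h), followed by RPS9 and MPST. For APOE it was PCSK1N (0.87 and 0.88), then CHST13 and STARD10. APOA2 was most like GAPDH (0.88 and 0.82), TMSB10 and COX6B1, and APOB most like ASPM (0.85 and 0.73), VPS13A and RGPD3. APOM was nearest to PTTG1IP (0.83 and 0.81), RNASET2 and ANG, MTTP to ZNF33B (0.78 and 0.82), CREG1 and MAL2, and APOC1 to SEC61B (0.79 and 0.81), CCNL2 and PCOLCE. APOC3 had GPHA2 (0.84 and 0.75), FAM3B and PHPT1, and APOH had NPC2 (0.84 and 0.77), RPS23 and TXNDC12. No member was among the 3 nearest genes of another. Between members, APOA1 and APOE had 0.83 and 0.79, and APOA1 and APOB -0.84 and -0.60. Genes of a library share its depth, replicate number and base composition, and these values are descriptions without a test.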

How the data were processed

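RNA-seq of 36 HepG2 libraries was analysed. The authors enriched mRNA, prepared TruSeq v2 libraries, mapped reads to hg19 in STAR and counted with iRNA-seq. Raw counts per RefSeq gene, without normalization, were deposited, and the deposited table also gives the counted length (an other unit, used for RPKM). Its starts count from 0, and 1 was added. No pair among 630 pairs of libraries was a duplicate (lowest chi-square per degree of freedom 1.93).

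Counts were fitted in edgeR 4.0.16 (R 4.3.3) with filterByExpr, TMM scaling and the quasi-likelihood F test, on 18 libraries per time for treatments and all 36 for time. The code was tried on simulated counts for 24 h only, in DHA against Ctrl and the pooled DHA comparison. That simulation had no culture effect, and the 6 h and time fits were not simulated. The Benjamini-Hochberg adjustment covered every gene tested. SE is the log2 fold change over the square root of F. CPM and RPKM use TMM-scaled totals. Counts limit precision little here, since every member had at least 334 counts per library. Doses follow the study's methods. Conditions and replicate numbers come from the labels, and no sample was left out. Replicate numbers were taken to pair libraries of 1 culture experiment, since each number goes with the same 3 culture numbers in all 12 deposited column names that carry it. Of the 45 pairs of same-numbered libraries in different groups at each time, 36 at 6 h and 34 at 24 h had deviations from their group means correlated above 0.1. The main fits had no block, and the fits with the number as a block were alternatives. The members, gene lists and rules were chosen with earlier results of these data known. All members were named, with fixed network genes and up to 5 called genes per list with the largest changes. A few genes of these lists are counted but not reported by name here. DESeq2 1.42.0, no filter, a replicate block, library series and leaving out each library were alternatives. GC content was known for 17756 genes. Figures used matplotlib 3.10.9.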

Additional observations from a re-analysis of the deposited data

How the results depend on the processing

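The rises of APOC3, APOM, APOA2 and MTTP between 6 h and 24 h, with and without DHA, and of APOB without DHA were called under all 10 other alternatives and in all 36 fits that left out 1 library. Those of APOC3 ranged from 1.07 to 1.54 without DHA over the alternatives. APOE without DHA reversed to -0.019 with the GC-content offset and to -0.012 with the replicate block added to it, and with DHA to -0.15 with both. The offset was chosen after seeing the data, as were its use with the block, leaving out the 6 h libraries numbered 1 and a block shared by both times; the cause was not tested. The APOE call (0.20 to 0.34, adjusted p up to 0.154) was lost without any 1 of 8 libraries: Ctrl 24 h replicate 3, Ctrl 6 h replicates 1 and 3, PCA 24 h replicates 1 and 3, PCA 6 h replicate 2 and replicate 2 of PRO at either time. The APOH call without DHA (-0.20 to -0.14, adjusted p up to 0.106) was lost without any 1 of 12: Ctrl 24 h replicates 2 and 3, Ctrl 6 h replicates 1 and 3, every PCA 24 h replicate, PCA 6 h replicates 1 and 3, PRO 24 h replicate 2 and PRO 6 h replicates 1 and 3. With DHA, the APOH call (-0.22 to -0.11, adjusted p up to 0.152) was lost without any 1 of 8: DHA replicate 1 at either time, DHA + PRO 6 h replicate 1, DHA + PRO 24 h replicates 2 and 3, DHA + PCA 6 h replicate 1 and DHA + PCA 24 h replicates 1 and 2. The APOB call with DHA (0.11 to 0.18, adjusted p up to 0.120) was lost without any 1 of 11: DHA 6 h replicate 1, DHA 24 h replicates 1 and 2, DHA + PRO 6 h replicate 3, DHA + PRO 24 h replicates 1 and 2, every DHA + PCA 6 h replicate and DHA + PCA 24 h replicates 1 and 2. APOA1 gained a call in 4 such fits in each setting and APOC1 without DHA in 2. Members called numbered 5 to 9 without DHA and 5 to 8 with DHA over all alternatives, and leaving out 1 library gave 5 to 8 and 5 to 7. Of all genes, 48.4% without DHA and 46% with DHA were called in the main fit, and 56.3% and 54.4% with the block. Shares under the other alternatives are not given here, so these counts cannot be read alone.

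For treatments, all counts of members called stayed at 0 when 1 library was left out. With DESeq2's Wald test 1 member (APOA2, 0.30, adjusted p = 0.0498) was called for DHA + PRO against DHA at 24 h. The share of all genes called by that test in this comparison is not given here. With the replicate block 1 member (APOB, -0.13, adjusted p = 0.0197) was called in the pooled DHA comparison at 24 h, and between the times APOA1 in both settings and APOC1 without DHA were gained. It changed no other call of a member. With the block and the GC-content offset together 3 members (APOA2, APOB, APOM) were called in the pooled DHA comparison at 24 h, and 1 (APOA2) in each of DHA against Ctrl, both combinations against DHA and the pooled PRO and PCA comparisons. By replicate block the genes called at 24 h against Ctrl went from 23 to 77 for DHA, from 47 to 135 for DHA + PRO and from 34 to 130 for DHA + PCA, and at 6 h from 2 to 18, 13 and 11. In the pooled PRO comparison at 24 h they went from 1 to 20, and for the change of the DHA effect with time from 0 to 20. Over all genes the pooled DHA calls at 24 h went from 146 to 367 with the block, 263 with the GC-content offset, 222 with the Wald test and 59 in the earlier series alone, and at 6 h from 24 to 64, 39, 45 and 8. Uncalled values changed sign in 286 of 4212 leave-one-out fits and in 108 of 1710 other fits.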
